A study of Mus musculus with 96 samples.

Results

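The Camta1 block is the proximal part of an interval of mouse chromosome 4, band 4E2, that was deleted by chromosome engineering. It comprised the HindIII fragments whose end lies from position 150083826 to 151250000 of chromosome 4 (mm9, NCBIM37), chosen by position and not by any measured value. These were 329 of the 48320 HindIII fragments of the chromosome, spanning 1.16 Mb. PE-4Cseq, a paired-end chromosome conformation capture assay, counts ligation products between a chosen restriction fragment, the viewpoint (VP), and all other fragments, and a strain polymorphism in the viewpoint read assigns each pair to one parental chromosome.

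The cells were mouse embryonic fibroblasts (MEFs) at confluent passage 4, taken from 13.5 day embryos of chimeras with 129S5/SvEvBrd ES cells crossed to C57BL/6J females. Lines 129S5E71 and 129S5E98 carried the deletion on the 129S5 chromosome, and lines 129S5E117 and 129S5E118 were undeleted controls. The intact C57Bl/6J homologue of the deletion-carrying cells is called +DBl6. The 129S5 and C57Bl/6J chromosomes of the control cells are called +129 and +Bl6. The deleted 129S5 chromosome, Df, lacks the block and gave the background. Each chromosome was read from 12 viewpoints in 2 MEF lines, so each group held 2 libraries and a line stands for 1 embryo-derived culture. VPs 1 and 2 lie upstream of the deletion, VPs 3 to 10 inside it and VPs 11 and 12 downstream.

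The 4E2 interval is orthologous to part of human 1p36, a band whose loss causes a developmental deletion syndrome. Camta1 encodes a calmodulin-binding transcription activator expressed mainly in the nervous system and is a very long gene. In the nucleus, active gene-rich chromatin and inactive or gene-poor chromatin each tend to contact chromatin of their own kind, even over long distances. Beside Camta1 the block holds Errfi1, a feedback inhibitor of EGF receptor signalling, Park7, which encodes the oxidative stress protein DJ-1, Tnfrsf9, the T cell co-stimulatory receptor 4-1BB, Uts2, the precursor of the vasoactive peptide urotensin 2, Per3, a circadian clock component, and Vamp3, a vesicle SNARE protein. The predicted gene Gm13090 lies inside Camta1.

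The annotation bore out the name of the block. Camta1 runs on the minus strand from 150433633 to 151235985, and 224 fragments, 68.1% of the block, end inside it. Another 73 fragments end between 150199842, where the first annotated gene starts, and the 3′ end of Camta1, and are called the gene cluster. The first 28 form a proximal stretch with no annotated gene. The last 4 fragments lie at the 5′ side of Camta1, and the first of them, chr4:151225862-151236104, carries the annotated start of the gene. Of the 329 fragments, 325 had both 30-base ends unique among the HindIII ends of the genome, 127 were captured from all 12 viewpoints and 2 were captured in no library. Across fragments, the share of libraries with a capture correlated weakly with fragment length (Spearman's rho 0.18) and with GC content (0.09). Fragments share libraries and are not replicates, so these are descriptions.

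The primers of both viewpoints inside the block match sequence next to the HindIII sites shown here. The fragment with the most reads, used below as the viewpoint, was chr4:150429741-150433314 for VP 3, which begins at its site. For VP 4 it was chr4:150987800-150990617, which does not reach its site. The 60 bases around each site (plus strand, the HindIII site in capitals) are chr4:150429714-150429773, in Vamp3, and chr4:150984273-150984332, in an intron of Camta1.
viewpoint 3 site: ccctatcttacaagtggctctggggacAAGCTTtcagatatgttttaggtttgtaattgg
viewpoint 4 site: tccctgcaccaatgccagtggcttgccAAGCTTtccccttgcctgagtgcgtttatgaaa

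The 5 fragments captured in the most libraries of intact chromosomes, outside any viewpoint zone, all lie in or at the start of Camta1. They are shown by the 30 bases of 1 end, from which an interacting read begins (5′ to 3′, HindIII site in capitals), because these are the sequences that the captures of the block were recognised by.
F150455251 right end, chr4:150455222-150455251, minus strand: AAGCTTgaacctatagcacggtaactttct
F150721996 right end, chr4:150721967-150721996, minus strand: AAGCTTcaagtgtactcgtcgctccaagtt
F151236104 right end, chr4:151236075-151236104, minus strand: AAGCTTtgtttaggtctggagggcgggttt
F150455836 left end, chr4:150455246-150455275, plus strand: AAGCTTtgcacactggttccctagtgtgtg
F150772798 right end, chr4:150772769-150772798, minus strand: AAGCTTgtcagctacccatccctcctggtc
F150455251 and its direct neighbour F150455836 lie in Camta1 introns near its 3′ end, and F150455251 was captured in 61 of 70 libraries. F151236104 was captured in 60 of 70 libraries, from all 12 viewpoints. Its right end is the HindIII site upstream of the Camta1 start, and the 119 bases from that site to the base before the start (chr4:151235986-151236104, minus strand, HindIII site in capitals) read as follows.
Camta1 upstream end: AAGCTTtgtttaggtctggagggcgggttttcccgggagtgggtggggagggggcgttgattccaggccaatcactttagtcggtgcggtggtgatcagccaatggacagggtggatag
This stretch holds CCAAT or its reverse complement ATTGG 2 times and 5 CG dinucleotides. Of 1355 protein-coding genes of chromosome 4, 22.8% held at least 1 such match in the 119 bases before their start, and 4.65% held at least 2. At least 5 CG were held by 54.6%. A match is a description of the letters and not a binding site.

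The 70 libraries of intact chromosomes used here held 64058 to 3969613 chromosome 4 reads (median 962004). Both control libraries of line 129S5E117 at VP 10 held 444 and 1255 reads and were left out. Over distant fragments captured by both members, 6 replicate pairs had correlations of 0.937 to 0.972, against 0.0747 to 0.354 in 27 other pairs, and each of the 6 was counted as 1 library in the tests of tiles and windows. These were +DBl6 at VPs 4, 6, 7 and 8 and +129 and +Bl6 at VP 9. Where libraries are counted or listed in the descriptions below, both members of such a pair are included. Their agreement is not independent. Another 5 pairs of libraries from different groups and lines correlated at 0.546 to 0.720. Among them were +DBl6 of line 129S5E71 with +Bl6 of 129S5E117 at VP 11 (0.720) and +DBl6 of 129S5E98 with +Bl6 of 129S5E118 at VP 10 (0.581). Both of these pairs lie across the comparison of +DBl6 with +Bl6 and were kept in it. At VP 10 the pair holds the only +Bl6 library. The part of these pairs in the results was not tested. The +129 library of line 129S5E117 at VP 11 went against its label. Its block share was 0.254% against 1.74% in line 129S5E118, and its distant reads correlated at 0.678 with those of the Df library of line 129S5E71. Some results that use it are also given without it. The medians and the +129 tile estimate at VP 11 include it. On Df, which lacks the block, 0.0301% to 0.214% of reads from VPs 1, 2, 11 and 12 fell in the block (8 libraries), which is the background of the assay.

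Reads in the block were a large share of all contacts only from the viewpoints inside it. The share was taken over chromosome 4 reads outside the 20 kb around the viewpoint. From VP 4, in Camta1, the block held 59.2% and 64.4% of reads on +129, 62.4% and 66.4% on +Bl6, and 70.0% and 70.3% on +DBl6. The +DBl6 pair was above all 4 control libraries, but it is one of those counted as 1 library. From VP 3, in Vamp3, the block held 34.5% and 33.7% on +129, 37.2% and 38.2% on +Bl6, and 39.4% and 36.9% on +DBl6. The +129 pair was below all other libraries there.

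From outside, the share did not fall evenly with distance. From VP 5, in Acot7 and 0.361 Mb past the block, 4.35% to 5.33% of reads fell in it (median 4.77%, 6 libraries). From VPs 6, 7 and 8, 0.895 to 1.67 Mb away, the medians were 2.89%, 2.89% and 2.57%. From VP 9, 2.18 Mb away, the median was 3.15% (2.96% to 3.37%). VP 10, 2.69 Mb away, gave a median of 2.04% (2.00% to 3.21%, 4 libraries). VP 11, 3.70 Mb away, gave 1.51% (0.254% to 1.74%). Without the library that went against its label, the range at VP 11 was 1.37% to 1.74%. From VP 12, 4.31 Mb away, the median was 1.92%. Upstream, VP 1 gave 2.97% and VP 2, which lies nearer, 1.67%, with no overlap between their libraries (2.59% to 3.22% and 1.23% to 1.94%). Wilson intervals at 95% confidence were narrow at these depths, for example 4.24% to 4.63% around 4.43% in the +129 library of line 129S5E117 at VP 6, and they cover counting error only. Each viewpoint has its own primers and depth, so shares of different viewpoints are set side by side and were not tested.

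**Figure D1:**
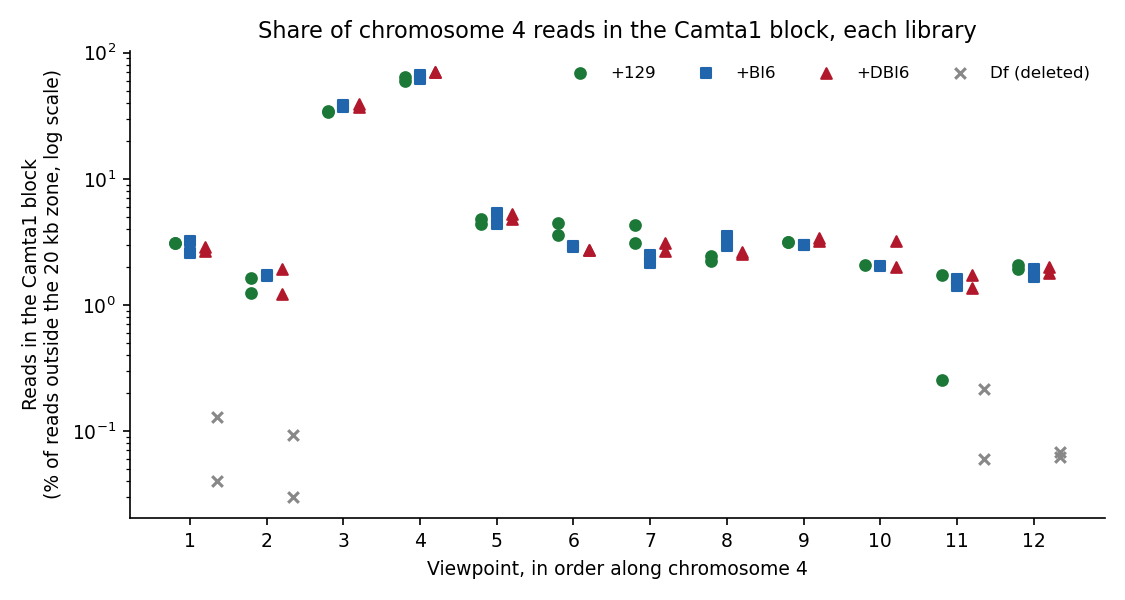
Share of chromosome 4 reads in the Camta1 block (percent of reads outside the 20 kb viewpoint zone, log scale) in each library, by viewpoint in order along the chromosome; circles +129, squares +Bl6, triangles +DBl6, crosses the deleted chromosome Df at VPs 1, 2, 11 and 12. VPs 3 and 4, inside the block, stand at 33.7% to 70.3%, the crosses at 0.0301% to 0.214%, and 1 +129 library at VP 11 lies at 0.254%, near the crosses.

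From VP 4 the reads were high throughout the Camta1 gene body and stepped down at both of its ends. In 80 kb windows, VP 4 gave medians of 48.7 to 84.7 per 1000 reads in the 6 windows from 150480001 to 150960000. In the gene cluster, 3 windows from 150160001 to 150400000 had medians of 3.12, 3.97 and 3.12 per 1000. The window from 150400001 to 150480000, which holds Vamp3 and the 3′ end of Camta1, lay between them with 22.8 to 42.7 per 1000. In the cluster, no library exceeded 5.63 per 1000 in any of the 3 windows, and from 150480001 to 150960000 none was below 39.5.

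The steps were measured as reads per kb in the 80 kb inside against the 80 kb outside each end of the gene. This measure was chosen after the profiles had been seen and carries no test. At the start of Camta1, 247 kb from VP 4, the ratio was 2.15 and 2.96 on +129, 2.38 and 2.90 on +Bl6, and 3.20 and 3.36 on +DBl6. At the same distance on the other side of VP 4, which lies within the gene, the nearer 80 kb held fewer reads per kb than the farther 80 kb in all 6 libraries (0.609 to 0.826). At the 3′ end, 556 kb away, the ratio was 3.59 and 3.52 on +129, 4.603 and 4.48 on +Bl6, and 7.92 and 8.24 on +DBl6. At that distance on the other side, outside the gene, the ratios were more variable (0.810 to 7.20, median 1.79). In captured fragments the steps were not visible near VP 4, where almost every fragment was captured (medians 94.3% inside and 100% outside the 3′ end). The step at the start was not particular to VP 4. The ratio there was above 1 in every library from VPs 1, 3, 5, 6, 7, 9 and 10. Their medians were 1.61 (VP 6) to 4.17 (VP 7). It was above 1 in 4 of 6 from VP 2, 5 of 6 from VPs 8 and 12, and 2 of 6 from VP 11. In captured fragments, the median share at the start was lower inside than outside from every viewpoint. At the 3′ end, VP 3, which lies next to it, had 2.40 to 3.54 in 6 libraries.

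From VP 3 the profile had another shape. VP 3 lies at the border between the cluster and Camta1, and its contacts fell across the gene body and rose again toward the start of Camta1. The windows from 150240001 to 150400000, in the cluster, had medians of 36.8 and 43.0 per 1000. Within Camta1 the median fell from 63.1 per 1000 at 150480001 to 150560000 to 5.81 at 150960001 to 151040000. It then was 23.1 at 151120001 to 151200000 and 31.5 at 151200001 to 151280000, the window that holds the start of the gene and reaches beyond the block. In that last window the values were 30.7 and 30.01 on +129, 36.1 and 32.8 on +Bl6, and 26.99 and 32.3 on +DBl6. At 150960001 to 151040000 they were 5.16 and 5.86, 3.97 and 10.3, and 7.40 and 5.77. Every library was higher in the farther window than any library in the nearer one. The window with VP 4 had the lowest median of all Camta1 windows from VP 3, though per 10 kb it was close to the next window (0.833 and 0.857). VP 4 gave 22.8 to 42.7 per 1000 in the window that holds VP 3, which also holds the 3′ end of Camta1. Reads of both viewpoints were scaled within their own libraries and were not tested against each other.

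**Figure D2:**
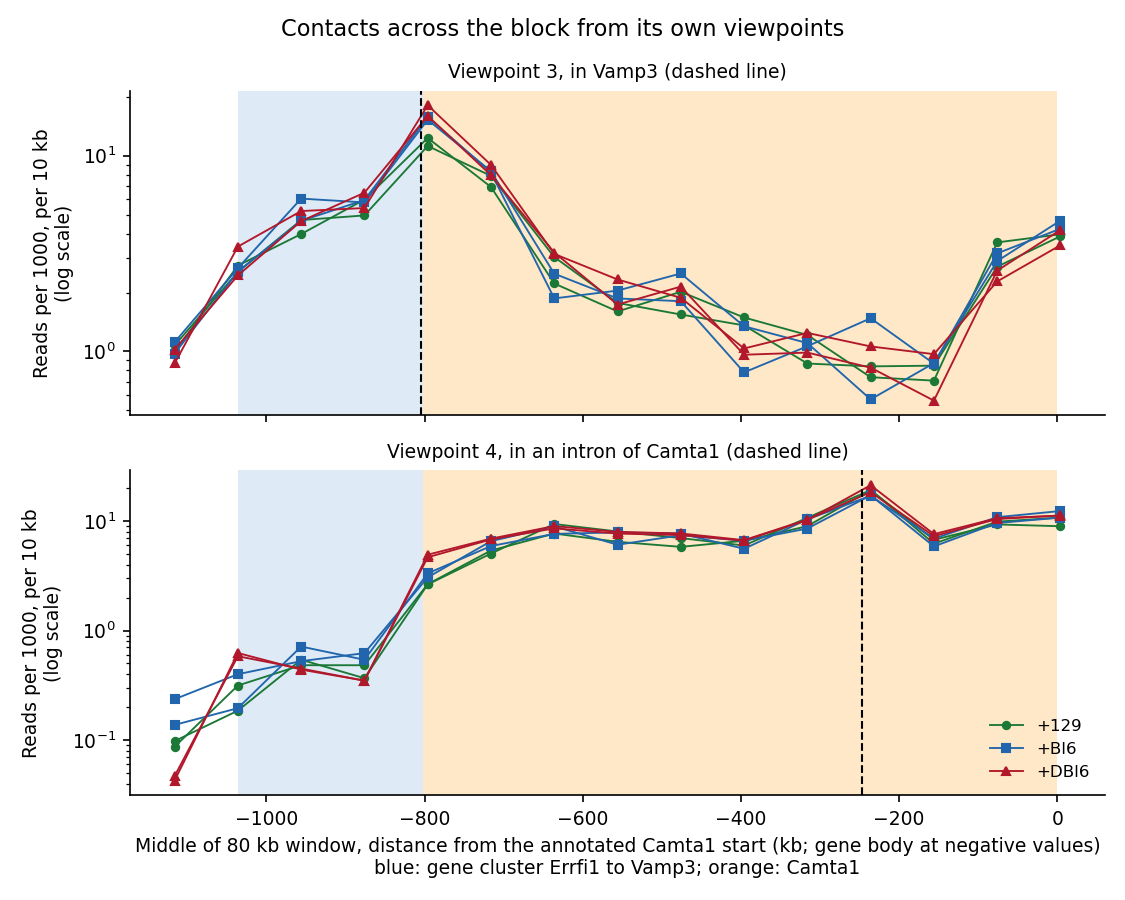
Reads per 1000 and per 10 kb of usable sequence (log scale) in the 80 kb windows of the block, from VP 3 (top) and VP 4 (bottom), against the distance of the window's middle from the annotated Camta1 start in kb; each line is 1 library, dashed lines mark the viewpoints, and the shaded parts are the gene cluster (blue) and Camta1 (orange). VP 4 is high across Camta1 and falls in the cluster, where window medians are 3.12 to 3.97 per 1000 reads, and VP 3 dips inside Camta1 and rises at its start, to a median of 31.5 per 1000 reads.

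The rise at the start of Camta1 was also read from other viewpoints. Reads per kb in the last 2 windows (151120001 to 151280000) were set against the 2 windows before them (150960001 to 151120000), a measure also chosen after the profiles had been seen. The ratio was above 1 in all 6 libraries from VP 3 (2.84 to 5.23, median 4.42), VP 5 (2.51 to 5.43, median 3.17), VP 1 (median 2.43), VP 9 (median 2.35), VP 11 (median 3.74) and VP 12 (median 2.19), and in 5 of 6 from VP 2. From VPs 6, 7 and 10 the medians were 1.29, 1.13 and 1.36, and 4 of 6, 4 of 6 and 3 of 4 libraries were above 1. From VP 8 the median was 1.66, with 5 of 6 above 1. The library of VP 11 that went against its label had 1.48, within the range of the others (1.25 to 12.7). From VP 4 itself it was 0.998 to 1.31. In captured fragments, which weigh each fragment once, the median ratio was 1.505 from VP 1, 1.57 from VP 2, 1.07 from VP 3, 1.15 from VP 5, 1.36 from VP 9, 1.35 from VP 11 and 1.29 from VP 12. From VPs 4, 6 and 10 it was 1.02, 1.01 and 1.01. It was 0.799 from VP 7 and 0.891 from VP 8, where 1 and 0 of 6 libraries were above 1. VPs 1, 2, 3, 5, 11 and 12 lie in genes (Masp2, Ctnnbip1, Vamp3, Acot7, Gnb1 or Nadk, and Agrn), and VPs 6 to 9 lie in none. VP 10, in Prdm16, is also in a gene.

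The same viewpoints differed in which part of the block they met. The ratio of reads per kb in Camta1 over reads per kb in the gene cluster was below 1 in all 6 libraries from VP 1 (0.190 to 0.652), VP 2 (0.164 to 0.475), VP 3 (0.600 to 0.673), VP 5 (0.547 to 0.821) and VP 11 (0.403 to 0.669). It was above 1 in all 6 libraries from VP 4 (10.6 to 14.3), VP 6 (5.33 to 81.7), VP 7 (1.81 to 5.35) and VP 8 (2.17 to 26.3), and in all 4 from VP 10 (1.40 to 2.81). The 6 libraries of VPs 4, 6, 7 and 8 include the +DBl6 pairs counted as 1 library in the tests. VP 9 and VP 12 had medians of 1.01 and 0.936. Counted as shares of fragments captured, the medians were 0.548 and 0.496 from VPs 1 and 2, 0.618 from VP 11, and 2.23, 2.61 and 3.29 from VPs 6, 7 and 8. The background on Df, with 11 to 103 of the 329 block fragments captured, was also below 1 from VP 1 (0.326 and 0.380), VP 2 (0.489 and 0.472) and VP 11 (0.265 and 0.500), and above 1 from VP 12 (2.17 and 1.43). The part of this background in the ratios was not tested. From VPs 3 and 5 the captured ratio had medians of 0.999 and 1.01. The +129 library of line 129S5E117 at VP 11 had 0.425 in reads, and the range there is the same without it. For VPs 1 and 2 the cluster is the nearer of both parts and for VPs 5 to 12 it is the farther. The part of distance in the ratios was not tested. Low counts moved with the highest ratios, and their part in the result was not tested. At VP 6 the control libraries of line 129S5E117, the shallowest, had 7 and 4 reads in the cluster, and without that line the ratios were 5.33 to 6.01. At VP 8 the libraries of line 129S5E118 had 1247 and 1267 reads in the cluster and ratios of 2.65 and 2.17, and the other 4 had 12 to 108 reads and ratios of 14.8 to 26.3.

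**Figure D3:**
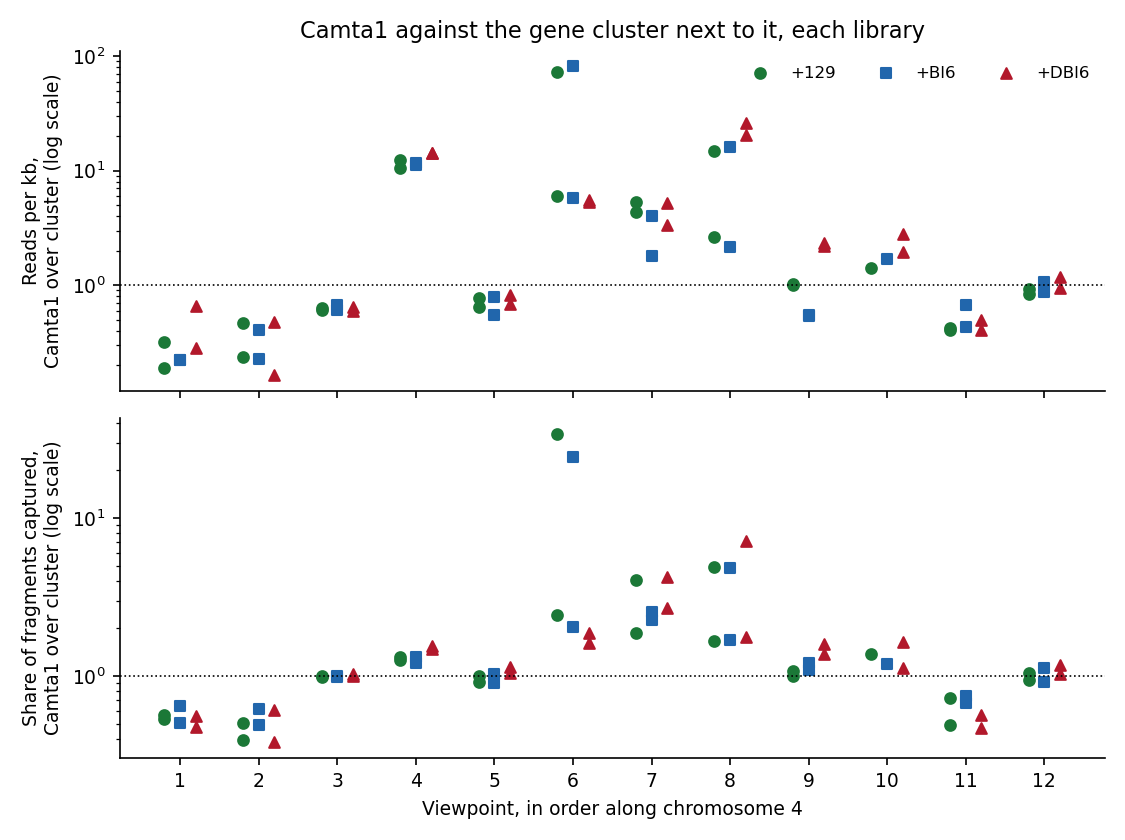
Ratio of Camta1 to the gene cluster next to it in each library, by viewpoint, as reads per kb (top) and as the share of fragments captured (bottom), both on log scales; circles +129, squares +Bl6, triangles +DBl6, dotted line at 1. All libraries of VPs 4, 6, 7, 8 and 10 lie above 1 in both panels and all of VPs 1, 2 and 11 below.

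The 3′ end of Camta1 was also a step in the reads from VPs 6, 7 and 8, which lie in no annotated gene. The 80 kb inside the gene against the 80 kb outside gave ratios above 1 in all 6 libraries from each of VPs 6, 7 and 8, with medians of 9.58, 14.3 and 40.4. Single values reached 213 and 392 because the outside stretch then held 5 reads, so the ratio is not precise. Over captured fragments, 71.4%, 51.4% and 48.6% of the inside fragments were captured against 56.3%, 28.1% and 25.0% outside (medians). From VPs 1, 2, 5 and 11 the median ratios in reads were 0.741, 1.06, 1.098 and 1.19. VP 9, in no gene, had a median of 1.28 with 4 of 6 libraries above 1. Its +Bl6 libraries, counted as 1 in the tests, had 0.385 and 0.393. VP 10, in Prdm16, had 3.46 to 4.15 in 4 of 4, and VP 12, in Agrn, 1.36 to 1.80 in 6 of 6. In captured fragments these viewpoints went the other way. The medians were 71.4% inside and 87.5% outside from VP 9, 48.6% and 53.1% from VP 10, and 54.3% and 71.9% from VP 12. At the proximal stretch, VPs 6, 7 and 8 gave medians of 0.103%, 0.157% and 0.242% of reads per Mb, against 3.51%, 2.89% and 3.12% per Mb in Camta1. The +DBl6 libraries of VP 7 were the exception, with 6.20% and 4.63% per Mb there against 2.84% and 2.51% in Camta1, and from each of VPs 6, 7 and 8 at least 1 library had no read there.

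**Figure D4:**
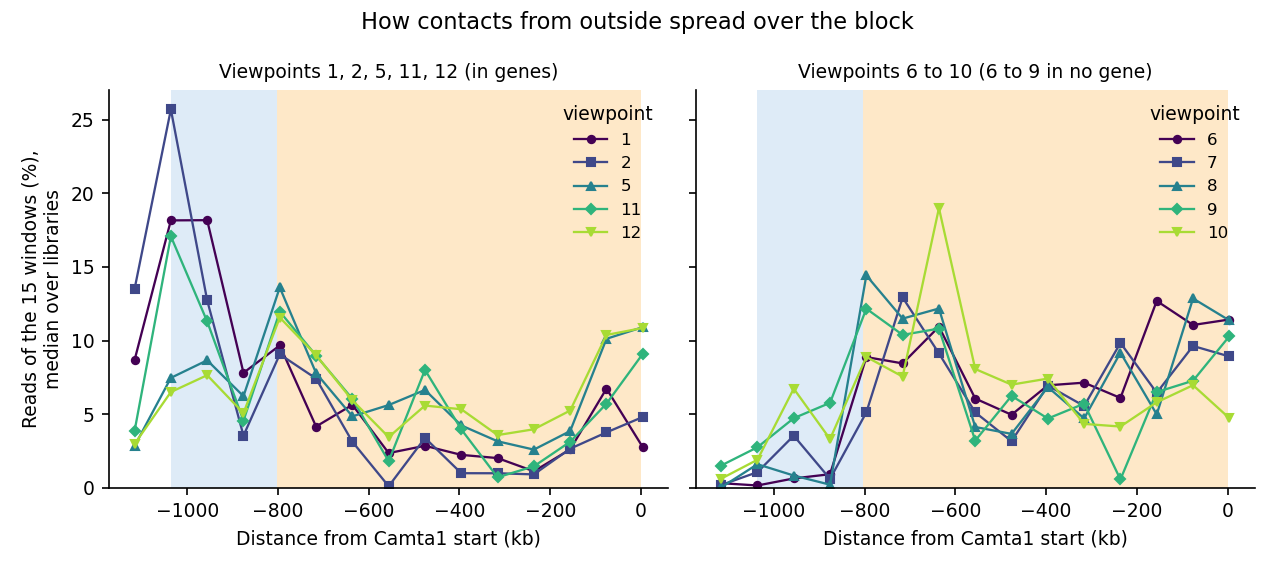
Share of the reads of the 15 windows of the block that fell in each 80 kb window (percent, median over libraries), against the distance from the Camta1 start in kb, from VPs 1, 2, 5, 11 and 12 (left) and from VPs 6 to 10 (right); blue shading marks the gene cluster and orange shading Camta1. From VPs 6, 7 and 8 the curves are low in the blue part, and from VPs 1, 2 and 11 they are highest there.

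The single genes of the cluster were compared as reads per length of their overlapping fragments. From VP 3, Tnfrsf9 had a median of 73.7 reads per 1000 and 100 kb (65.1 to 85.4), Per3 60.3 (48.4 to 74.1), Errfi1 55.5 (51.1 to 76.3), Uts2 27.5 and Park7 13.9 (4.27 to 18.4). Park7 lay below Errfi1 and Tnfrsf9, its neighbours on both sides, without overlap. Uts2 and Gm13090 rest on 1 fragment each, and Gm13090 varied from 5.09 to 232 from VP 3. From VP 4, Vamp3, the gene next to the 3′ end of Camta1, was highest of the cluster with a median of 15.7 (11.7 to 20.5), Tnfrsf9 had 8.57 and Per3 4.43. From VP 1, Errfi1 had a median of 14.8 with a wide range of 0.432 to 23.4, and Tnfrsf9 8.14 (5.93 to 11.2), against 1.31 (1.16 to 2.22) for Camta1. From VP 8, Tnfrsf9 had 0.330, Errfi1 0.115, Per3 0.0638 and Uts2 no read in any library, against 3.09 (2.73 to 4.32) for Camta1. In VP 8 libraries a gene with no read cannot be told apart from one below detection at this depth.

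The named fragments differed by viewpoint. F150455251, near the 3′ end of Camta1, had a median of 10.7 per 1000 reads from VP 3 (7.41 to 15.3) and 3.42 from VP 4 (1.97 to 4.07). F150721996, in the middle of the gene, had 1.76 from VP 3 and 5.38 from VP 4 (4.87 to 6.78). F151236104, at the start of the gene, had 3.59 from VP 3 (2.84 to 4.21), 6.38 from VP 4 (4.92 to 13.2) and 0.611 from VP 5, and was captured in 2 of 6 libraries from each of VPs 7 and 8, where the window around it had medians of 2.11 and 2.83 per 1000. In all other viewpoints but VP 10 (2 of 4 libraries) it was captured in every library.

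Sequence at the same distance on the other side of a viewpoint served as a further reference, and could be used for 5 viewpoints. Reads with several hits had been dropped, and the uniqueness of fragment ends was examined in the block only. The part of mappability in these ratios was not tested. From VPs 1 and 2 the block held more reads per kb than the mirrored interval in all 6 libraries each (medians 8.35, from 4.73 to 14.1, and 5.11, from 1.61 to 13.5). From VP 6 it held less in all 6 (median 0.283, from 0.252 to 0.419), the mirrored interval being chr4:153037458-154203632. From VPs 5 and 7 the medians were 1.22 and 1.34, and 5 of 6 libraries were above 1. In captured fragments the medians were 5.91 and 2.91 from VPs 1 and 2, 1.04 from VP 5 and 0.678 from VP 6, and VP 7 turned, with a median of 0.853 and 1 of 6 libraries above 1.

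The intact homologue of deletion-carrying cells was compared with the same chromosome of control cells to ask whether the block was met differently when its other copy was missing. In edgeR's quasi-likelihood fits of +DBl6 against +Bl6, the block as 1 tile did not reach an adjusted p of 0.05 from any of 12 viewpoints. Unadjusted values below 0.05 were also found in 0 of 12, against 6.12% of all tiles. Over all tiles of the block's length, 1 of 1537 was called, 0.0651%. DESeq2 also gave no call among the 12, against 43 of 1537 over all tiles. Its unadjusted p was below 0.05 in 1 of 12, 8.33%, against 9.95% of all tiles. The estimates were above 0 from 11 of 12 viewpoints (median log2 fold change 0.27, against −0.02 over all tiles). Scaling by total reads gave 8 of 12, with medians of 0.04 for the block and −0.28 for all tiles, so that the block stood 0.28 or 0.32 above all tiles. All tiles include those far from the viewpoints. The block was not compared with tiles of like distance or depth, so this offset may not be particular to it. Comparisons of different viewpoints share the same cultures, and those at VPs 10 and 11 hold the pairs correlated across groups. At VP 7 the log2 fold change was 0.82 with a standard error of 0.50, and at VP 4 it was 0.55 with a standard error of 0.30 (edgeR, adjusted p = 0.911 for both).

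As a share of reads, averaged over 11 viewpoints per line on the log2 scale, the block was at 2.20 and 2.05 on +DBl6 and at 2.15 and 2.08 on +Bl6. The difference was 0.01 (exact two-sided permutation test over lines, p = 1, with 0.33 the smallest p that 2 against 2 lines allow). Here the highly correlated pairs entered as separate lines, and over the 6 viewpoints without them the difference was −0.0054 (exact permutation p = 1). As a share of captured fragments, +DBl6 was higher by 0.23 (2.22 and 2.03 against 2.00 and 1.81, exact permutation p = 0.33, the smallest possible). The +DBl6 libraries also held fewer captured fragments, with medians of 2897 and 4558 per line against 4845 and 6134 on +Bl6, and the part of this in the result was not tested.

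Of the 80 kb windows of the block, 1 of 176 passed the threshold for +DBl6 against +Bl6 (edgeR), and 15 of 10337 over the chromosome, 0.145%. It was the window from 150080001 to 150160000 from VP 7, with a log2 fold change of 9.09 (edgeR adjusted p = 5.91e-05, 1 added-up library against 2). It did not pass with total reads scaling, a minimum of 5 reads per fragment or all libraries as labelled (edgeR adjusted p = 0.0868, 0.0737 and 0.0686). The window held 9377 and 10674 reads in both +DBl6 libraries, which were added up, against 0 and 55 on +Bl6 and 1 and 68 on +129. A single fragment, ending at 150141637, carried 99.9% and 99.8% of those reads. The next windows did not pass. From VP 7, the window at 150800001 to 150880000 had a log2 fold change of 3.74 (edgeR adjusted p = 0.256). From VP 4, the window at 150400001 to 150480000, at the 3′ end of Camta1, held 40.4 and 42.7 per 1000 on +DBl6 against 26.5 and 28.8 on +Bl6 and 23.0 and 22.8 on +129, without overlap, and its edgeR adjusted p was 0.454. DESeq2, also with 1 added-up +DBl6 library at these viewpoints, called both. It called 5 of 176 block windows and 340 of 10337 windows over the chromosome. Unadjusted p was below 0.05 in 24 of 176 block windows by edgeR, 13.6%, against 5.97% of all windows. The contrast depended on the processing. It was 7.39% against 6.01% with total reads scaling, 5.11% against 4.11% with the 5-read fragment minimum and 0.769% against 1.61% in captured fragments. DESeq2 gave 16.5% against 14.1%, a minimum of 100 reads 11.8% against 5.16% and a 50 kb viewpoint zone 11.5% against 5.78%.

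The chromosomes of the control cells, +129 and +Bl6, give the difference between strains without any deletion. The block tile passed from none of 12 viewpoints by edgeR or DESeq2, with 1 unadjusted p below 0.05 by edgeR and 0 by DESeq2. Over all tiles, unadjusted p was below 0.05 in 3.32% by edgeR and 4.94% by DESeq2. Over the chromosome edgeR called 0 of 1537 tiles, 0%, and DESeq2 called 1. The signs were balanced, with 6 of 12 above 0 and a median log2 fold change of 0.03. From VP 3 the tile was lower on +129 by a log2 fold change of −0.24, with a standard error of 0.10 (edgeR adjusted p = 0.998). From VPs 6 and 7 the block shares on +129 (4.43% and 3.59%, and 4.33% and 3.09%) were above those on +Bl6 (2.91% and 2.87%, and 2.50% and 2.16%), with log2 fold changes of 0.48 and 0.90 (edgeR adjusted p = 0.998 for both). From VP 8 the order was the opposite, 2.23% and 2.44% against 3.54% and 2.91%. None of these differences passed the test. With the line as a block, edgeR could be fitted from 10 viewpoints and called no block tile. Its unadjusted p was below 0.05 in 4 of 10 block tiles, 40%, against 4.02% of all tiles.

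None of 176 block windows passed for +129 against +Bl6 by edgeR or DESeq2, and edgeR called 1 of 10337 windows over the chromosome, 0.00967%. Unadjusted p was below 0.05 in 2 block windows by edgeR, 1.14%, against 2.05% of all windows. By DESeq2 it was below 0.05 in 4, 2.27%, against 7.55% of all windows. The 3 lowest p-values came from VPs 3 and 4, all with less on +129. At VP 3 these were 150400001 to 150480000, with 50.0 and 45.6 per 1000 against 64.2 and 62.0, and 150240001 to 150320000, with 31.3 and 36.9 against 36.6 and 47.5. At VP 4 it was 151200001 to 151280000, with 69.4 and 83.3 against 83.3 and 95.6 (edgeR adjusted p = 1 for all 3). Both chromosomes of a line came from the same cells, and with the line as a block this VP 4 window passed (log2 fold change −0.34, edgeR adjusted p = 0.0294). In that edgeR fit, unadjusted p was below 0.05 in 9 of 146 block windows, 6.16%, against 2.66% of all windows. The averaged log2 block share differed by −0.07 (1.97 and 2.13 on +129, exact permutation p = 0.667). Without VP 11, whose +129 library of line 129S5E117 went against its label, it differed by 0.05, in the opposite direction. No tile or window count of the block changed without that library.

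**Figure D5:**
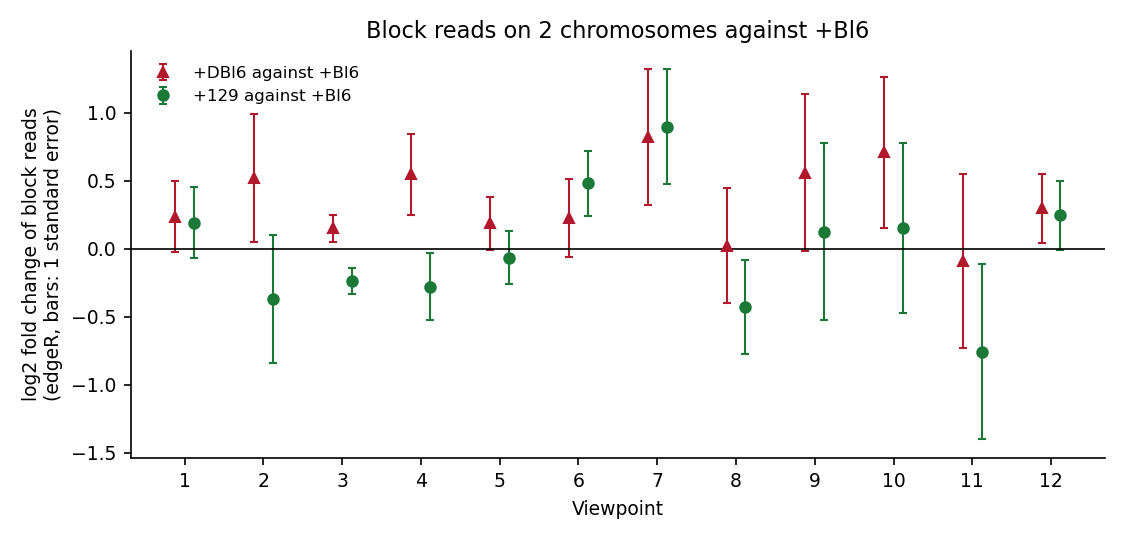
log2 fold change of block reads from each viewpoint, for +DBl6 against +Bl6 (triangles) and +129 against +Bl6 (circles); bars are 1 standard error of the edgeR fit with 1 or 2 libraries per group. The triangles are above 0 from 11 of 12 viewpoints and the circles from 6 of 12, and none passed the threshold.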

How the data were processed

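Allele-specific PE-4Cseq of chromosome 4 was run from 12 viewpoints in 4 MEF lines, giving 96 libraries. Reads were trimmed to 30 bases by the authors and aligned with Bowtie to sequences next to HindIII sites of mm9. Alignments allowed 3 mismatches, and reads with several hits were dropped. What the authors deposited is the raw count of reads for every HindIII fragment, without scaling. The 16 deposited tables of differential regions hold the authors' own comparisons and were not used. PCR products of lines 129S5E71 and 129S5E117 were purified with a column kit and those of 129S5E98 and 129S5E118 with beads. Pairs carry no molecular identifiers, so intervals cover counting error only, and replicate spread may be partly technical.

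The viewpoint fragment was the one with the most reads in the 0.1 Mb that the label names, and fragments within 20 kb of it were left out. Counts were summed over tiles of 1166175 bases, placed so that the block is 1 tile, and over 80 kb windows. Tests used edgeR 4.0.16 (R 4.3.3) on tiles or windows that reached 10 reads in 50% or more of the libraries (TMM, glmQLFit, glmQLFTest), in 1 fit per viewpoint over +129, +Bl6 and +DBl6, with Benjamini-Hochberg adjustment over all tiles or windows and viewpoints of a comparison. Libraries under 10000 reads were left out, and replicate pairs with a correlation above 0.9 at shared fragments over 1 Mb from the viewpoint were added up. Both chromosomes of a control line came from the same cells, which pairs +129 with +Bl6 by line, and the deviations of such libraries from their group means correlated at −0.0407 to 0.352 over 11 viewpoints. A lone library in a group was taken to vary as the other groups. DESeq2 1.42.0 was run with size factors from positive counts. Adding up, leaving out lines, other filters, zones and scalings were tried as alternatives.

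On simulated counts for +DBl6 against +Bl6 (1558 tiles, 13540 windows), edgeR called 22.7% of 4-fold and 70.8% of 16-fold tile changes, and 0% of 16-fold and 11.8% of 256-fold window changes. Unchanged tiles and windows had an unadjusted p under 0.05 in 5.36% and 3.55% of cases. The simulation kept highly correlated replicate pairs as separate libraries, so these rates do not cover the groups in which such pairs were added up. Named were all protein-coding genes of the block, windows past the threshold and otherwise the 3 with the smallest adjusted p (ties by unadjusted p), and the 5 most often captured fragments. Gene models came from GENCODE on NCBIM37. The block, its parts, the measures and the lists were chosen with earlier results of these data known. The Df libraries served as background without a test. Gene expression and imaging were not analysed here.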

Additional observations from a re-analysis of the deposited data

How the results depend on the processing

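In the simulation, which kept highly correlated replicate pairs as separate libraries, 16-fold changes of windows were not called (0%). The number of viewpoints with a called block tile stayed 0 in each alternative for +129 against +Bl6. For +DBl6 against +Bl6 it was 1 with captured fragments (VP 4, log2 fold change 0.79), where the +DBl6 libraries captured 275 and 274 of 321 block fragments against 293 and 281 on +Bl6, and 2759 and 2531 fragments in all against 4845 and 4753, so this estimate does not mean more captured block fragments, and 0 to 1 when each line was left out, the 1 being VP 3 without line 129S5E98 (log2 fold change 0.41, edgeR adjusted p = 0.00639). The called block windows of this comparison, 1 of 176, became 0 with total reads scaling, the 100-read filter, captured fragments, the 5-read fragment minimum, all libraries as labelled and the replicate block, 2 with at least 1 read and 5 with DESeq2, and ranged from 0 to 1 when lines were left out (0 without 129S5E117 and 0 without 129S5E118). The window at VP 7 could not be tested with at least 100 reads, captured fragments, the replicate block or without 129S5E117 or 129S5E118. The cause of the other changes was not tested. Over the chromosome, called windows were 15, against 340 with DESeq2, 30 with at least 1 read, 8 with total reads scaling and 0 with captured fragments or the 5-read minimum, and called tiles were 1, against 43 with DESeq2. For +129 against +Bl6 the replicate block gave 1 called block window in place of 0, from VP 4 at 151200001 to 151280000 (log2 fold change −0.34, edgeR adjusted p = 0.0294), and DESeq2 called 17 windows over the chromosome in place of 1. The block fits for +DBl6 could be made at 6 viewpoints and those for +129 at 10. For +DBl6 the block joined lines of the same purification batch, whose deviations from the group means correlated at −0.0456 to 0.549 (median 0.0135). The block share difference for +DBl6, 0.01, ranged from −0.064 to 0.090 when lines were left out, was −0.0054 over viewpoints without shared-molecule libraries and stayed 0.01 within the replicate block. For +129, −0.07 ranged from −0.18 to 0.052 when lines were left out, was 0.040 in captured fragments, 0.045 without VP 11, −0.23 over viewpoints without shared-molecule libraries and −0.07 within the replicate block. The mirror ratio of VP 6 was 0.678 in captured fragments in place of 0.283. Of single estimates, the tile at VP 6 for +DBl6 turned to −0.086 with total reads scaling and −0.15 in captured fragments. In captured fragments those for +129 turned to 0.016 (tile at VP 4), 0.0011 (VP 3 window from 150240001) and 0.020 (VP 4 window from 151200001). The VP 7 window from 150080001 missed the threshold in 3 of these alternatives that tested it, with log2 fold changes of 7.71 to 8.69. Choosing the library at VP 11 to leave out, and captured fragments for the ratios within the block, came after the data were seen.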
